A study of Homo sapiens with 4 samples.

Results

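Bone morphogenetic protein (BMP) signalling was followed through 9 genes, chosen by name with 1 array probe each, out of 47289 probes tested. They comprised the ligands BMP4, BMP6 and BMP7, the protease BMP1, the secreted antagonist GREM1, the type I receptors ACVR1 (ALK2) and BMPR1A (ALK3), and the homeobox target genes MSX1 and MSX2. After knock-down of OCT4 and after knock-down of SOX2, 7 of the 9 genes rose and BMPR1A fell, while after knock-down of NANOG GREM1 rose and BMPR1A and MSX2 fell, MSX2 just past the limit of 1.5-fold. GREM1 rose at least 14.7-fold in the OCT4 knock-down, at least 13.4-fold in the SOX2 knock-down and at least 3.53-fold in the NANOG knock-down, and BMPR1A was the member that fell in each of the 3. The BMPR1A fall in the NANOG knock-down was under the 1.5-fold limit with arrays scaled to the same median. It was also under it with the signals as deposited, which here means without background correction but likewise scaled to the same median. With background subtracted it stayed called.

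NCCIT is a human embryonal carcinoma (hEC) line, derived from a germ cell tumour and used as a stand-in for human embryonic stem cells because it is easily transfected. It was treated with transfection reagent in the mock group, or with reagent and esiRNA (a pool of short double-stranded RNAs made enzymatically from one long one) against OCT4, NANOG or SOX2, the transcription factors that hold such cells undifferentiated. All 4 groups had the same medium with serum and, by the labels, were harvested at day 2.5 (the methods name other days). Labelled RNA copies (cRNA) amplified from total RNA were hybridised to single-colour Illumina bead arrays, 3 biological replicates a group. Each knock-down was compared with the mock, and the knock-downs with one another, to ask which genes change after each knock-down. Below, without a factor means after its knock-down. The groups stand for 1 cell line only, for silencing rather than deletion, for a NANOG esiRNA pool that the labels do not specify, and for a mock without any named non-targeting esiRNA. RNA came from whole cultures, so that fewer cells of a type and less RNA per cell cannot be told apart.

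BMPs are secreted dimers of the TGF-beta superfamily. They bind a type II receptor together with a type I receptor, such as ACVR1 or BMPR1A, which phosphorylates SMAD1, SMAD5 and SMAD9; these enter the nucleus with SMAD4 and switch on targets that include the MSX and ID genes. Gremlin (GREM1) binds BMP dimers and keeps them from the receptors. BMP1, despite its name, is not a ligand but a metalloprotease that trims procollagens and cleaves the BMP antagonist chordin. In human embryonic stem cells, BMP4 added to the medium is known to drive differentiation to extra-embryonic cell types.

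Levels are given as log2 normalized intensity, in which 1 unit is a doubling, after background correction and quantile normalization. A probe was counted as detected on an array when its detection p, against the array's negative controls, was 0.01 or less. Called means an adjusted p under 0.05 in limma over all 47289 probes together with at least 1.5-fold. Between 11196 and 12858 probes were detected on an array, and replicates correlated at r = 0.992 to 0.997 over detected probes. In the check of the labels, the OCT4 gene (POU5F1) fell by 4.21 in the OCT4 knock-down (adjusted p = 1.69e-10) and NANOG fell by 1.85 in the NANOG knock-down (adjusted p = 3.02e-07), both on the log2 scale; the SOX2 probe was not analysed here. In the OCT4 knock-down POU5F1 was still detected on 1 of 3 arrays. It was detected on no SOX2 knock-down array, at least 15.2-fold lower than in mock (adjusted p = 1.22e-10), and had a log2 fold change of -0.42 in the NANOG knock-down (adjusted p = 0.0808). NANOG was still detected on all 3 arrays of its own knock-down. On the OCT4 and SOX2 knock-down arrays it was never detected. There it was at least 9.34-fold (OCT4, adjusted p = 9.64e-11) and at least 8.52-fold (SOX2, adjusted p = 7.41e-11) lower than in mock. The OCT4 and SOX2 knock-downs thus did not lower 1 factor alone. Of 12 markers of undifferentiated embryonal carcinoma cells 10 had a named probe. Of these, 10 fell in the OCT4, 7 in the NANOG and 9 in the SOX2 knock-down, against 2.94%, 1.17% and 2.87% of all probes. Probe names came from the study's list of changed probes, which makes a change likely for each marker and the counts no independent evidence. The summed intensity of the markers ranged from 28953 to 30364 in mock, 5595 to 6565 in OCT4, 19184 to 20321 in NANOG and 5398 to 5942 in SOX2 arrays. It was lower in all 3 knock-downs, the NANOG knock-down included, where 6 of the 9 BMP genes were not called against mock. Its part in their levels was not tested.

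Each member lies on a chromosome of its own. In GRCh38.p14 ACVR1 lies at chr2:157736446-157876330, MSX1 at chr4:4859665-4863936, MSX2 at chr5:174724582-174730896, BMP6 at chr6:7726099-7881728, BMPR1A at chr10:86755763-86932844, BMP4 at chr14:53949736-53956891, GREM1 at chr15:32718004-32745106 and BMP7 at chr20:57168753-57266641, each span taking in all exons and introns of the RefSeq gene. The arrays measure the transcript and not these loci.

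RefSeq starts of 7 of the 9 genes were given, with 12 windows of 250 bases just before a start (3 given starts each for BMP4 and ACVR1, 2 for GREM1). Each window was searched on both strands for the octamer ATGCAAAT recognised by POU factors such as OCT4, for CATTGT, the core recognised by SOX factors, and for GGCGCC, a GC-rich element recognised by the BMP SMADs, which reads the same on both strands; none of these motifs contains another. Windows of 4 genes are printed 5′ to 3′ on the gene's own strand, with matches in capitals. Where several starts were given, the one farthest upstream among them was used. For BMP4 this window lies inside the gene span, which on this minus strand begins at 53956891, so a start farther upstream was not among those given. GREM1 is shown for the largest rise, BMP4 for the largest rise among the ligands, and ACVR1 and BMPR1A because these receptors moved in opposite directions.
BMP4, chr14:53955051-53955300, minus strand: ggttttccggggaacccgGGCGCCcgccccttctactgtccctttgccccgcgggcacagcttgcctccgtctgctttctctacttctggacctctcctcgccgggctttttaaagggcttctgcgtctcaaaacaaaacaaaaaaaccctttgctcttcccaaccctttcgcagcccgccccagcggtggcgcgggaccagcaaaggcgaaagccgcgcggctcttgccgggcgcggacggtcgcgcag
GREM1, chr15:32717754-32718003, plus strand: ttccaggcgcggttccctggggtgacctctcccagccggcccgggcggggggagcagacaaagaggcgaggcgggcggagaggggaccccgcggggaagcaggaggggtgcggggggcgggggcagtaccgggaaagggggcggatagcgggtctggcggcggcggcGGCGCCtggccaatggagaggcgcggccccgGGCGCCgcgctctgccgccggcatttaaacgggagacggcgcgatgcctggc
ACVR1, chr2:157876331-157876580, minus strand: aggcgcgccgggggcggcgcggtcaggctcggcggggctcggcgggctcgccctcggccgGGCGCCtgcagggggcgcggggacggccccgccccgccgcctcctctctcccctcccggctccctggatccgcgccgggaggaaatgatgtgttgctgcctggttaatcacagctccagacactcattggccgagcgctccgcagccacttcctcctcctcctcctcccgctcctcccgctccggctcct
BMPR1A, chr10:86755513-86755762, plus strand: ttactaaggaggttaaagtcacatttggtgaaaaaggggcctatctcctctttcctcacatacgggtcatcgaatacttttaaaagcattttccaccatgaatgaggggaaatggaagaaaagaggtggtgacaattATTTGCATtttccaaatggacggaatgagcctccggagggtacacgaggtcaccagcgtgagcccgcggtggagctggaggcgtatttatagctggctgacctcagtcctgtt
The BMPR1A window held the octamer once, on the opposite strand, beginning 113 bases before the start. It was the single match to the octamer among the 12 windows, against 1.63% of all 35116 windows of that length in the table. GGCGCC stood in 3 of the 12 windows, at 2 places in GREM1 and at 1 place each in BMP4 and ACVR1, against 16.4% of all windows. The SOX core stood in 1, at another start of ACVR1, against 9.29%. A match says only that the letters are there, and no binding was measured.

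Against mock, 8 of the 9 members were called in the OCT4 knock-down, where 6.75% of all probes were called: 7 were higher, as were 3.81% of all probes, and 1 was lower, as were 2.94%. In the SOX2 knock-down 8 were called, against 6.47% of all probes, with 7 higher (3.6% of all probes) and 1 lower (2.87%). In the NANOG knock-down 3 were called, against 2.54%, with 1 higher (1.37%) and 2 lower (1.17%). Among the 12374 probes detected on all arrays of at least 1 group the shares called were 24.5% (OCT4), 23.8% (SOX2) and 9.11% (NANOG). All 9 members had arrays that did not overlap the mock in the OCT4 knock-down, as had 27.3% of all probes, and all 9 in the SOX2 knock-down, as had 24.1%. In the NANOG knock-down 4 did not overlap it, as did 20.1% of all probes. The median log2 fold change of the members was 1.13 in the OCT4, 1.5 in the SOX2 and 0.06 in the NANOG knock-down, against -0.01, -0.01 and -0.00 over all probes, and the members' medians were 1.13, 1.5 and 0.06 with the probes undetected in mock at the lower limits described under BMP1. These genes were ones that the study had discussed after seeing the same arrays, and are therefore no independent evidence of a direction. The 3 comparisons share the mock arrays.

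**Figure D1:**
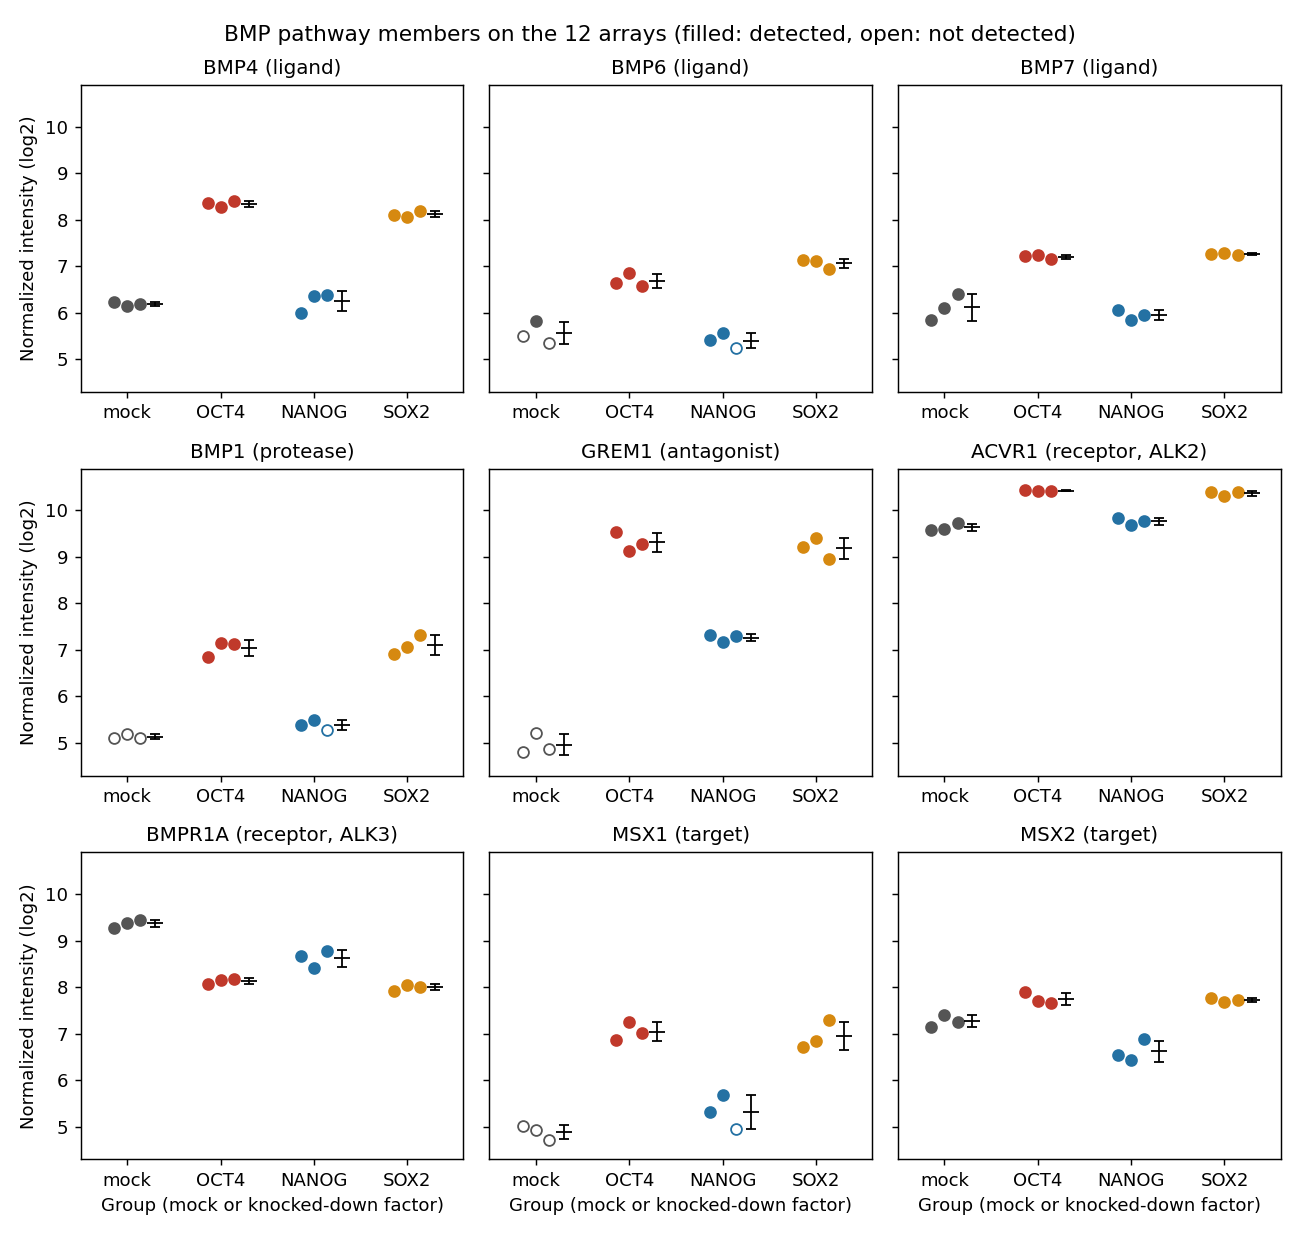
Normalized intensity (log2) of the 9 genes on each of the 12 arrays by group, filled where the probe was detected and open where it was not, with the mean and SD of the 3 arrays beside each group. GREM1 lies between 4.80 and 5.22 on the mock arrays and between 9.14 and 9.54 on the OCT4 knock-down arrays, and BMPR1A is highest on the mock arrays.

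BMP4, the ligand most used to differentiate pluripotent cells, had levels of 6.23, 6.15 and 6.19 on the mock arrays and 8.36, 8.27 and 8.40 on the OCT4 knock-down arrays. In the SOX2 knock-down it stood at 8.10, 8.06 and 8.19, and in the NANOG knock-down at 6.00, 6.36 and 6.39. Thus the OCT4 and SOX2 arrays lay far above the mock, while the NANOG arrays lay on both sides of it. BMP4 rose 4.44-fold in the OCT4 knock-down (log2 fold change 2.15, SE 0.096, adjusted p = 5.62e-09) and 3.80-fold in the SOX2 knock-down (1.93, SE 0.096, adjusted p = 1.47e-08). The NANOG knock-down differed from mock by 0.06 on the log2 scale, with a 95% interval of -0.15 to 0.27 (adjusted p = 0.849).

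BMP6, a ligand best known for its part in iron and bone metabolism, read 5.50, 5.82 and 5.36 in the mock group, where 1 of 3 arrays detected it, and 6.63, 6.86 and 6.57 in the OCT4 knock-down. The SOX2 knock-down gave 7.13, 7.12 and 6.94, and the NANOG knock-down 5.41, 5.57 and 5.23, with 2 of 3 arrays detecting it. All OCT4 and SOX2 arrays were above all mock arrays, and the NANOG arrays overlapped the mock. The rise was 2.19-fold after OCT4 silencing (log2 fold change 1.13, SE 0.12, adjusted p = 2.92e-05) and 2.83-fold after SOX2 silencing (1.5, SE 0.12, adjusted p = 2.01e-06). After NANOG silencing the log2 fold change was -0.16 (95% interval -0.43 to 0.11, adjusted p = 0.622).

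BMP7, a ligand with roles in kidney and eye development, was at 5.84, 6.10 and 6.41 in mock cells, at 7.22, 7.24 and 7.16 without OCT4 and at 7.26, 7.29 and 7.25 without SOX2. The mock arrays spread over a wider range than the 6 arrays of these knock-downs, and lay below all of them. The NANOG knock-down, at 6.06, 5.85 and 5.96, lay within the mock range. BMP7 rose 2.13-fold after OCT4 silencing (log2 fold change 1.09, SE 0.11, adjusted p = 1.83e-05) and 2.22-fold after SOX2 silencing (1.15, SE 0.11, adjusted p = 1.09e-05), and its log2 fold change after NANOG silencing was -0.16 (95% interval -0.41 to 0.09, adjusted p = 0.577).

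BMP1 was read by a probe for 1 of its isoforms and was detected on no mock array, at 5.11, 5.20 and 5.10. It was detected on all arrays of the OCT4 knock-down, at 6.85, 7.15 and 7.12, and of the SOX2 knock-down, at 6.91, 7.07 and 7.33. For probes detected on no array of a group, the change is a lower limit, the mean of the brighter group against the lowest detected signal of each dim array or the probe's own signal where that was higher. The limit for BMP1 was at least 3.02-fold higher in the OCT4 (adjusted p = 6.61e-08) and at least 3.15-fold higher in the SOX2 knock-down (adjusted p = 4.75e-08). The NANOG arrays, at 5.39, 5.49 and 5.29, all lay above the mock arrays but only 2 of them detected the probe, and the log2 fold change of 0.25 (95% interval 0.01 to 0.49) did not pass the test (adjusted p = 0.265).

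GREM1, the antagonist, was likewise detected on no mock array, at 4.80, 5.22 and 4.86. The OCT4 knock-down arrays read 9.54, 9.14 and 9.28, the SOX2 knock-down arrays 9.21, 9.40 and 8.96, and the NANOG knock-down arrays 7.33, 7.18 and 7.29. The 3 levels formed distinct steps, with mock lowest, NANOG between, and the OCT4 and SOX2 arrays overlapping at the top. The rise against mock was at least 14.7-fold (OCT4, adjusted p = 2.57e-10), at least 13.4-fold (SOX2, adjusted p = 3.17e-10) and at least 3.53-fold (NANOG, adjusted p = 6.55e-07). GREM1 was the one member called higher than mock in the NANOG knock-down, and it stood 4.15-fold higher in the OCT4 than in the NANOG knock-down (adjusted p = 3.50e-07) and 3.79-fold higher in the SOX2 than in the NANOG knock-down (adjusted p = 6.36e-07).

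The type I receptors moved in opposite directions. ACVR1 (ALK2), which mainly serves BMP6 and BMP7, read 9.58, 9.61 and 9.73 in mock cells, 10.43, 10.42 and 10.43 without OCT4, 10.40, 10.31 and 10.40 without SOX2 and 9.83, 9.69 and 9.77 without NANOG. The 6 arrays of the OCT4 and SOX2 knock-downs were above all others, whereas the NANOG arrays overlapped the mock. ACVR1 rose 1.73-fold after OCT4 silencing (log2 fold change 0.79, SE 0.064, adjusted p = 1.81e-06) and 1.66-fold after SOX2 silencing (0.73, SE 0.064, adjusted p = 3.52e-06). After NANOG silencing its log2 fold change was 0.13 (95% interval -0.01 to 0.27, adjusted p = 0.365).

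BMPR1A (ALK3), the main type I receptor for BMP4, stood at 9.28, 9.39 and 9.44 on the mock arrays, at 8.06, 8.15 and 8.18 in the OCT4 knock-down and at 7.93, 8.06 and 8.0 in the SOX2 knock-down. The NANOG knock-down arrays, at 8.67, 8.42 and 8.78, lay between the mock and the other knock-downs with no overlap on either side. The mock level was 2.36 times that of the OCT4 knock-down (log2 fold change -1.24, SE 0.090, adjusted p = 5.61e-07), 2.59 times that of the SOX2 knock-down (-1.38, SE 0.090, adjusted p = 2.05e-07) and 1.68 times that of the NANOG knock-down (-0.75, SE 0.090, adjusted p = 0.000229). With arrays scaled to the same median in place of quantile normalization, the NANOG value was -0.56 and under the 1.5-fold limit (adjusted p = 0.00339). That scaling put the median of the detected probes at 0.19 in this comparison. With the signals as deposited, which keep their background, the BMPR1A value was -0.51 (adjusted p = 7.81e-05). With background subtracted and a floor of 20 the fall stayed called (-0.82, adjusted p = 0.00188).

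MSX1, a homeobox gene that BMP signalling switches on in many embryonic tissues, was detected on no mock array, at 5.01, 4.92 and 4.71. It read 6.86, 7.26 and 7.02 in the OCT4 knock-down and 6.72, 6.83 and 7.29 in the SOX2 knock-down, above every mock array. The rise was at least 3.03-fold (OCT4, adjusted p = 2.95e-06) and at least 2.83-fold (SOX2, adjusted p = 4.40e-06). On the NANOG arrays, at 5.32, 5.69 and 4.95, it was detected in 2 of 3 and overlapped the mock (log2 fold change 0.44, 95% interval 0.03 to 0.84, adjusted p = 0.251).

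MSX2, its relative and likewise a BMP target, was detected on all 12 arrays and showed a different order. Mock arrays read 7.15, 7.41 and 7.25, OCT4 knock-down arrays 7.90, 7.70 and 7.65, SOX2 knock-down arrays 7.77, 7.68 and 7.73, and NANOG knock-down arrays 6.54, 6.44 and 6.88. The NANOG arrays were the lowest and the mock lay between them and the other knock-downs, without overlap. The fall after NANOG silencing was 1.57-fold (log2 fold change -0.65, SE 0.11, adjusted p = 0.00371), just past the fold limit. It was no longer called without mock replicate 2 (-0.58, adjusted p = 0.0193), without NANOG replicate 2 (-0.56, adjusted p = 0.0194), with median scaling (-0.42, adjusted p = 0.0973) or with the signals as deposited (-0.25, adjusted p = 0.0662). The fall stayed called with background subtracted and a floor of 20 (-0.73, adjusted p = 0.0256). In the OCT4 knock-down the log2 fold change of 0.48 (SE 0.11, adjusted p = 0.00994) and in the SOX2 knock-down that of 0.46 (SE 0.11, adjusted p = 0.0144) stayed under 1.5-fold. MSX2 was called higher in both with background subtracted and a floor of 20 (0.62, adjusted p = 0.0235, and 0.60, adjusted p = 0.0290) and with median scaling (1.22, adjusted p = 1.45e-05, and 0.80, adjusted p = 0.00098), and in the OCT4 knock-down with the signals as deposited (0.72, adjusted p = 5.72e-07).

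**Figure D2:**
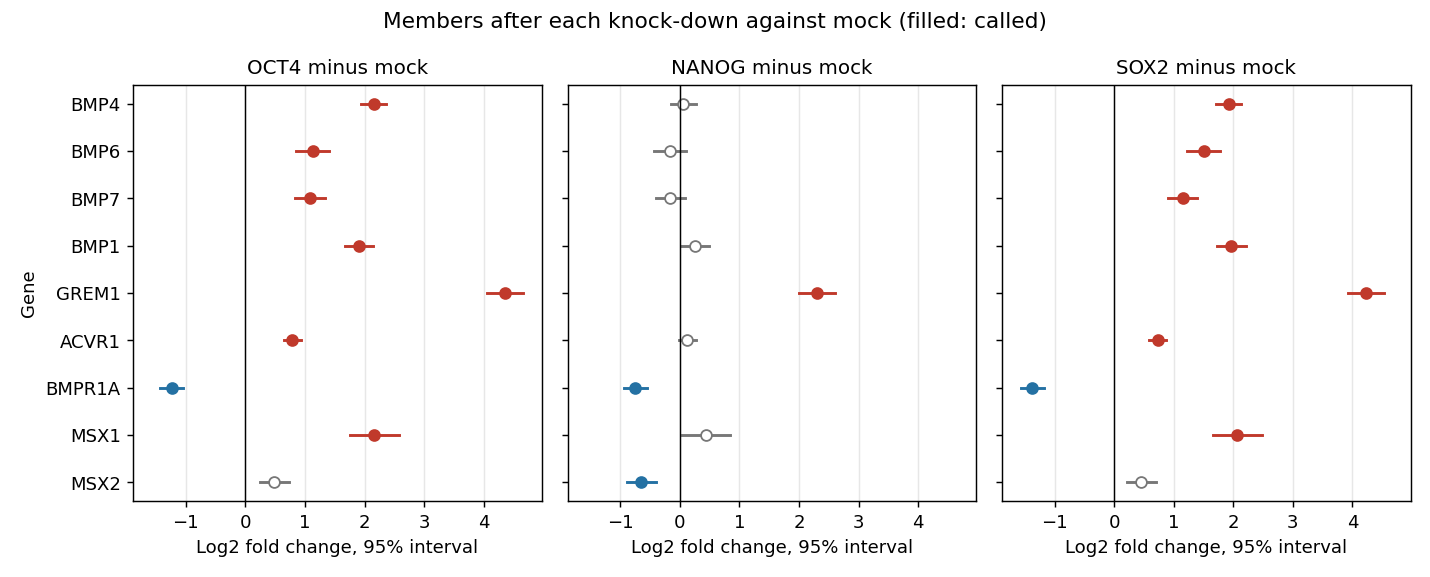
Log2 fold change of each member with its 95% interval (horizontal axis) against mock, with 1 panel for each silenced factor, filled where called (red higher, blue lower) and open where not. In the NANOG panel BMP4, BMP6, BMP7 and ACVR1 have intervals that take in 0, while GREM1 lies at 2.31; for BMP1, GREM1 and MSX1, undetected in mock, the fitted values are plotted and not the lower limits.

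The knock-downs were then compared with one another, which leaves the shared mock out. Between the OCT4 and SOX2 knock-downs no member was called, and 0% of the 47289 probes were, while 3380 probes had an unadjusted p under 0.05 in limma. BMP6 was higher on every SOX2 array than on every OCT4 array (log2 difference, OCT4 minus SOX2, -0.37, 95% interval -0.65 to -0.10, adjusted p = 0.526) and BMP4 lower (0.23, 95% interval 0.02 to 0.43, adjusted p = 0.656). In all 5 members had arrays that did not overlap here, as had 13.7% of all probes. For the other 7 members the difference ranged from -0.06 to 0.14 and all 95% intervals took in 0, the widest being that of MSX1, from -0.31 to 0.50. A missed call here does not show that the levels were equal. With median scaling, which left the OCT4 arrays higher over the detected probes as a whole, BMP4 was called (0.61, adjusted p = 0.00501).

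Between the OCT4 and NANOG knock-downs 8 of the 9 members were called, all higher without OCT4, where 5.69% of all probes were called and 3.22% were higher. Between the SOX2 and NANOG knock-downs all 9 were called (8 higher, 1 lower without SOX2), with 5.72% of all probes called, 3.1% higher and 2.62% lower. Among detected probes the shares called were 21.1% and 21.2%. No member overlapped between these groups, as was so for 24.8% (OCT4) and 23.9% (SOX2) of all probes. The median member difference was 1.29 and 1.63 on the log2 scale, against -0.01 over all probes in each. BMP4 stood 4.26-fold higher in the OCT4 than in the NANOG knock-down (adjusted p = 9.14e-09), and MSX2 2.19-fold higher (adjusted p = 1.36e-05). For MSX2 the SOX2 knock-down was 2.15-fold above the NANOG knock-down (adjusted p = 1.57e-05). BMPR1A was lower without SOX2 than without NANOG by a log2 difference of -0.63 (adjusted p = 0.000318), and lower without OCT4 by one of -0.49 (adjusted p = 0.00216), which is under the fold limit. With median scaling these differences were -0.56 (adjusted p = 0.00183) and -0.03 (adjusted p = 0.922), and neither was called. ACVR1, 1.52-fold higher without SOX2 than without NANOG (log2 difference 0.61, adjusted p = 2.43e-05), was under the fold limit with the signals as deposited (0.52) and with background subtracted (0.56), and BMPR1A with the signals as deposited (-0.46).

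**Figure D3:**
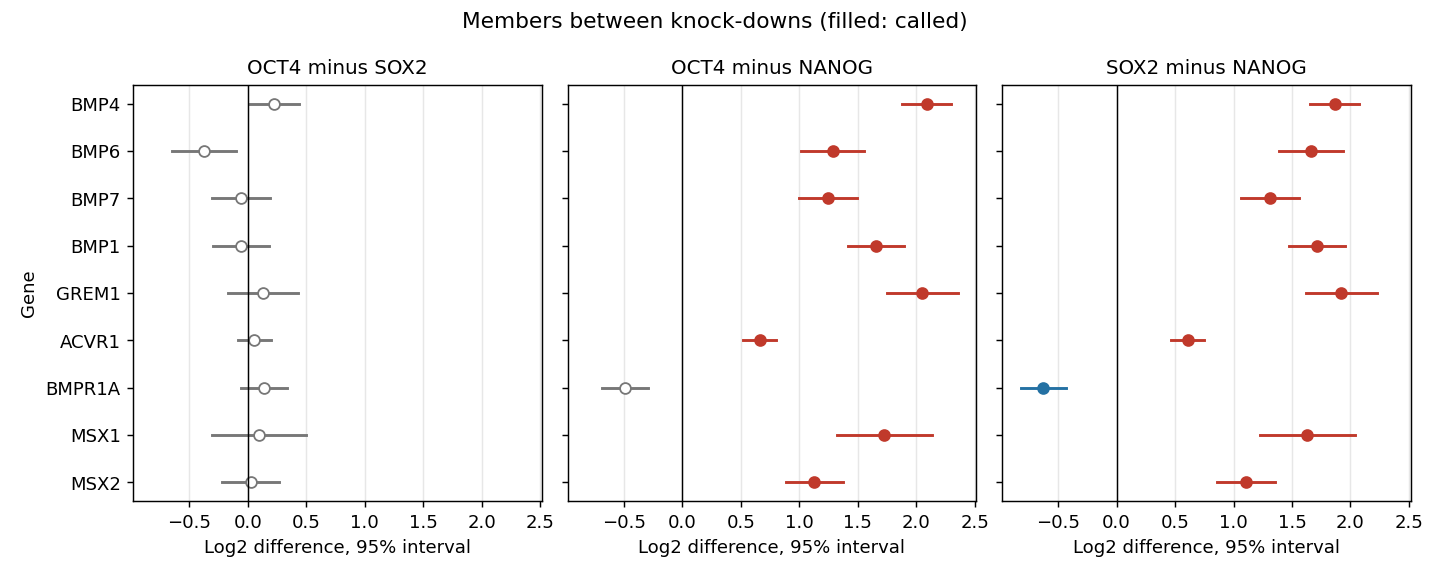
Log2 difference of each member with its 95% interval (horizontal axis) between the knock-downs, the first named minus the second, filled where called (red higher, blue lower) and open where not. In the OCT4 minus SOX2 panel all points lie between -0.37 and 0.23, and in the other panels all members but BMPR1A lie above 0.

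The order of the 4 groups was therefore the same in outline for most of the members. For BMP4, BMP6, BMP7, BMP1, ACVR1 and MSX1 the OCT4 and SOX2 knock-downs stood at the top without a call between them, and the NANOG knock-down and the mock at the bottom without a call between them. By their mean levels GREM1 and BMPR1A had the NANOG knock-down in between, in opposite order, and MSX2 had it at the bottom. BMPR1A was not called between the NANOG and OCT4 knock-downs. The calls of BMPR1A and MSX2 between the NANOG knock-down and mock were lost with median scaling and with the signals as deposited. Both were kept with background subtracted and a floor of 20. Over the 12 arrays the members' levels correlated pairwise at Pearson r between 0.53 and 0.99 among the 8 genes other than BMPR1A, the closest being BMP1 and MSX1 (r = 0.99). BMPR1A ran against all of them, most closely against GREM1 (r = -0.97) and least against MSX2 (r = -0.46). These 12 points come in groups of 3 that share a treatment, so the r values mix the steps between groups with the spread within them.

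Of 59 other genes of the BMP pathway listed for this purpose, 12 had a named probe, 2 of them with 2 probes. Probe names were taken from the study's list of changed probes, which makes a change in at least 1 knock-down likely for each of the 12 and their counts no independent evidence. In the OCT4 knock-down 7 of the 12 genes rose and 2 fell, in the SOX2 knock-down 6 rose and 2 fell, and in the NANOG knock-down 6 rose and none fell. The median log2 fold changes over their probes were 0.69 (OCT4), 0.63 (SOX2) and 0.70 (NANOG), or 0.44, 0.44 and 0.51 with undetected probes at their lower limits, against -0.01, -0.01 and -0.00 over all probes.

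Among the extracellular regulators, follistatin (FST), which binds activins and some BMPs, rose in the NANOG knock-down by 1.21 on the log2 scale with the probe for all isoforms (adjusted p = 9.10e-07) and by 1.62 with the probe for 1 isoform (adjusted p = 9.66e-05). With the first of these probes FST fell by 0.83 in the OCT4 (adjusted p = 5.02e-06) and by 0.80 in the SOX2 knock-down (adjusted p = 6.74e-06). The second probe, detected on 1 array in each of these groups and on 1 mock array, gave -0.16 and -0.13 and no call. The BMP co-receptor RGMB rose by 1.37 in the NANOG knock-down (adjusted p = 2.66e-05). It was detected on 1 of 3 mock arrays and on no array of the OCT4 or SOX2 knock-down. Its log2 fold changes of -0.18 (OCT4, adjusted p = 0.469) and -0.42 (SOX2, adjusted p = 0.0447) were not called. Its relative RGMA fell by 0.71 without OCT4 (adjusted p = 0.00019) and by 0.67 without SOX2 (adjusted p = 0.000309), and had a log2 fold change of 0.55 without NANOG, under the fold limit (adjusted p = 0.0045).

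Follistatin-like 1 (FSTL1), a secreted glycoprotein, rose by 2.99 without OCT4 (adjusted p = 2.20e-10) and by 3.02 without SOX2 (adjusted p = 1.98e-10), with a value of -0.46 without NANOG that was under the fold limit (adjusted p = 0.0106). PCOLCE2, which enhances the procollagen cleavage carried out by BMP1, rose by 0.87 without NANOG (adjusted p = 1.03e-05), and its values of 0.50 and 0.24 without OCT4 and SOX2 were under the fold limit. FST, RGMB and PCOLCE2 thus rose in the knock-down in which none of the 3 BMP ligands was called.

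Inside the cell, SMAD6, an inhibitory SMAD that BMP signalling itself induces, rose in all 3 knock-downs, by 1.22 (OCT4, adjusted p = 2.82e-06), 1.31 (NANOG, adjusted p = 7.54e-06) and 1.15 (SOX2, adjusted p = 4.84e-06). SMURF2, a ubiquitin ligase that marks receptors and SMADs for degradation, rose by 0.62 without OCT4 (adjusted p = 0.00442) and by 0.68 without SOX2 (adjusted p = 0.00243), and had a value of -0.07 without NANOG (adjusted p = 0.886).

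Of the target genes, ID2, which encodes a dominant-negative helix-loop-helix protein, rose by 0.75 without OCT4 (adjusted p = 9.36e-06) and by 0.85 without NANOG (adjusted p = 1.53e-05), with 0.57 without SOX2 just under the fold limit (adjusted p = 0.000111). HEY1, a transcriptional repressor also downstream of Notch, rose by 1.23 without OCT4 (adjusted p = 2.94e-08) and by 1.27 without SOX2 (adjusted p = 2.20e-08), with -0.10 without NANOG (adjusted p = 0.553). The T-box gene TBX3, detected on no mock and no NANOG array with either of its probes, was at least 6.43-fold higher without OCT4 (adjusted p = 7.91e-12) and at least 6.02-fold higher without SOX2 (adjusted p = 7.86e-12) with its isoform probe. With its probe for all isoforms the limit was at least 1.25-fold without OCT4 (adjusted p = 1.27e-06), and without SOX2 the limit was near no change (log2 fold change 0.90, adjusted p = 2.02e-05). The homeobox gene DLX5 was near the detection limit throughout and on no mock array above it, at least 1.29-fold higher without NANOG (adjusted p = 0.00047) and at least 1.06-fold higher without OCT4 (adjusted p = 0.000939). Without SOX2 it was detected on 2 of 3 arrays (log2 fold change 0.80, adjusted p = 0.0071).

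**Figure D4:**
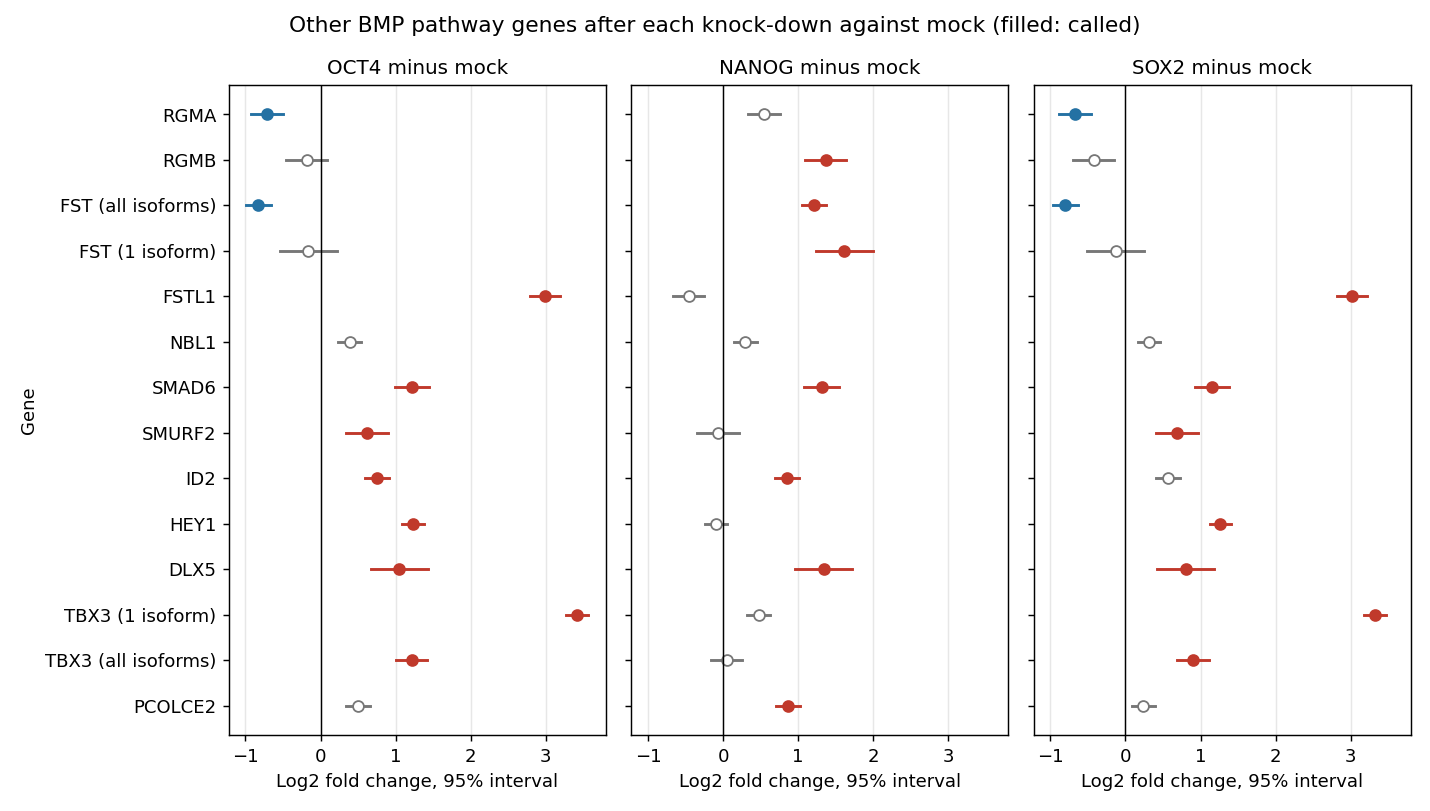
Log2 fold change with its 95% interval (horizontal axis) of the other BMP pathway genes with a named probe, in each knock-down against mock, filled where called (red higher, blue lower) and open where not; FST and TBX3 have 2 probes. SMAD6 lies above 1 in all panels, while FST, on its probe for all isoforms, is at 1.21 in the NANOG panel and at -0.83 and -0.80 in the OCT4 and SOX2 panels.

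The named genes most like 3 of the members over the 12 arrays were sought among 2984 named probes. These probes come from the study's list of changed probes, and the arrays fall into 4 groups of 3. High r values are therefore likely from shared steps between groups, and are no independent evidence of a link between the genes. For BMP4 they were MYL4 (Pearson r = 0.995), which encodes a muscle myosin light chain, GADD45A (0.994), a stress-response gene, and PDLIM1 (0.994), which encodes a cytoskeletal protein. For GREM1 they were LOC145786 (0.996), BTG2 (0.995), an antiproliferative gene, and SOWAHC (0.994), and for BMPR1A a transcript cluster without a gene symbol (0.991), PRDM14 (0.990), a regulator of pluripotency, and TBC1D23 (0.989).

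Markers of other cell types that a differentiating culture could hold were read in the same way. Here too a named probe came from the study's list of changed probes, so that the counts are no independent evidence. Of all probes 3.81% (OCT4), 3.6% (SOX2) and 1.37% (NANOG) were called higher. Both mesoderm markers with a named probe out of 8, HAND1 and RUNX1, rose without OCT4 and without SOX2, and HAND1 also without NANOG; RUNX1 was detected on no mock and no NANOG array. Their summed intensity went from between 560 and 629 in mock to between 5385 and 5493 (OCT4), 4409 and 5036 (SOX2) and 1900 and 2388 (NANOG). This sum is mostly HAND1 in every group, and the paper links HAND1 to trophoblast differentiation as well. Of 6 fibroblast markers 4 were named, of which COL1A1, COL3A1 and LUM were detected on no mock and no NANOG array and rose without OCT4 and SOX2. THY1, which the paper also lists as enriched in human embryonic stem cells, fell in every knock-down. The sum of the 4, which in mock is mostly THY1, ranged from 744 to 813 in mock, 578 to 670 in OCT4, 549 to 598 in SOX2 and 270 to 317 in NANOG arrays. The neural marker NES, the 1 named of 5, ranged from 208 to 242 in mock, 958 to 989 in OCT4, 1010 to 1262 in SOX2 and 417 to 522 in NANOG arrays. No trophoblast marker (0 of 10) and no endoderm marker (0 of 6) had a named probe, so they were not read here. The paper reports CDX2, KRT7, HCG, CSH1, AFP, GATA4 and HNF4A as not significantly expressed on its arrays, in mock or after knock-down. It reports the same for the neural markers PAX6, SOX1, NEUROD1 and OLIG2, which had no named probe here. The mesoderm marker T was likewise not significantly expressed there, though the paper did not examine a transient rise of it. The paper also states that almost no ectodermal markers were induced. For GATA6 it gives ratios after OCT4 and SOX2 silencing. By real-time PCR it reports a transient rise of CDX2 and KRT7 after OCT4 silencing. The part of other cell types in the levels of the BMP genes was not tested.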

How the data were processed

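Expression was measured in NCCIT cells on 12 Illumina arrays, 3 biological replicates in each of 4 groups, mapped to groups by the sample titles. The authors deposited, for each array, an intensity per probe that was neither background-subtracted nor normalized, and beside it a detection score as a fraction from 0 to 1. The authors also deposited 1 mean intensity per group, background-subtracted and rank-invariant normalized in BeadStudio 1.0 (named in the submitters' processing notes and the methods), used here only as an alternative. The chip each array came from is not given in the sources used here, and the number of arrays limits the precision.

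From the array intensities, background was corrected with negative-control levels inferred from the detection scores and values were quantile normalized on the log2 scale (neqc in limma 3.58.1, R 4.3.3, offset 16); the offset makes fold changes of dim genes too small. The 4 control probes were left out and no probe was filtered. One model over the 12 arrays, with 4 group means, gave moderated two-sided tests (lmFit, eBayes), with Benjamini-Hochberg adjustment over 47289 probes; called means adjusted p under 0.05 and at least 1.5-fold. In simulated data of 47289 probes, 200 were changed by 1 on the log2 scale in the OCT4 comparison. They were drawn from the 12374 probes detected on all arrays of at least 1 group. Of the 200, 93% were called, none in the wrong direction. The share does not cover probes detected in no group. The files do not name genes: 2985 probes were named from the probe list published with the study, which holds probes it called changed and of which only a part was read, and symbols were updated through RefSeq (2481 by accession, 102 by symbol, 57 by an older symbol, 345 kept as given). Promoter windows are from RefSeq, GRCh38.p14. Members and gene lists were chosen with earlier results of these data known. The text names the 9 members, POU5F1 and NANOG, every pathway gene called against mock, and the 3 named genes most correlated with BMP4, GREM1 and BMPR1A; the marker genes are named as lists.

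Alternatives were another offset, median scaling, signals as deposited, a filter on detected probes, other limits, array weights, only the compared groups, the methods' t-test, the replicate number as a block, each array left out, and the authors' group values. Median scaling followed the same background correction. The signals as deposited were not background-corrected, but each array was scaled to the same median and values under 20 were set to 20. Subtracting background with a floor of 20 was chosen after seeing the data.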

Additional observations from a re-analysis of the deposited data

How the results depend on the processing

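Of the members' fold changes against mock under all alternatives together, 469 kept their direction and side of the limits, 20 lost a call, 5 gained one, 8 moved and 2 changed sign. The changes of sign were in values near 0 that were never called: BMP4 in the NANOG knock-down was -0.010 without NANOG replicate 3 (adjusted p = 0.984) and up to 0.19 without NANOG replicate 1, and BMP7 there was 0.0094 with median scaling (adjusted p = 0.988). In the NANOG comparison 1 member stayed called under a 2-fold limit, under median scaling and with the signals as deposited, and 0 by the methods' t-test after Benjamini-Hochberg adjustment. By that test 5 were called in the SOX2, 5 in the OCT4 against NANOG and 4 in the SOX2 against NANOG comparison. Between OCT4 and SOX2, 1 was called with median scaling.

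The count of all probes called moved further. A 2-fold limit gave 1289 (OCT4), 331 (NANOG), 1313 (SOX2), 1038 (OCT4 against NANOG) and 1060 (SOX2 against NANOG). The adjusted t-test gave 1309, 46, 1115, 919 and 821 in the same order. An offset of 50 gave 2084 (OCT4), 615 (NANOG) and 1793 (OCT4 against NANOG), and the signals as deposited 404 (NANOG), 1543 (SOX2), 149 (OCT4 against SOX2) and 1291 (SOX2 against NANOG). Median scaling gave 6535 (OCT4), 4343 (OCT4 against NANOG) and 794 (OCT4 against SOX2). Between OCT4 and SOX2 the count was 2 with only these groups in the fit, 24 by the unadjusted t-test, and 0 to 4 with an array left out, the 4 without SOX2 replicate 3. The causes were not tested.

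The share of calls that were higher moved with the setting. With quantile normalization, median scaling, signals as deposited and background subtracted with a floor of 20, in that order, it was 56.5%, 94.6%, 91.6% and 51.5% for OCT4, 53.8%, 82%, 71.3% and 49.4% for NANOG, and 55.7%, 81%, 73.8% and 54.7% for SOX2. Between OCT4 and NANOG it was 56.5%, 90.7%, 86.9% and 55.8%, and between SOX2 and NANOG 54.2%, 63.5%, 63.7% and 57.7%. The median of the detected probes in the OCT4 comparison was -0.03 and 0.57 with quantile and median scaling. The authors' group values, from which background was subtracted, gave larger rises for BMP4 (2.57 for OCT4 and 2.40 for SOX2, log2).

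Replicate numbers come from the file headers and share only a number: same-numbered arrays of different groups had a median correlation of deviations of -0.03 (-0.30 to 0.31, 18 pairs), against 0.05 for other pairs. With the replicate block no call of a member changed. Dim probes limit the fold changes of BMP1, GREM1 and MSX1 to lower bounds.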
